A study of Mus musculus with 4 samples.

Results

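Isolated CTCF peaks are here sites of CTCF enrichment in mouse hippocampus with no other peak within 100 kb. They were chosen by measured values of the authors' single peak list, namely score and spacing. An autosomal peak was taken if its score lay below the 95th percentile of the list (568.6, called the score limit) and its nearest other peak was more than 100 kb away, from midpoint to midpoint. The first and last peak of a chromosome were judged by their only neighbour. The rule gave 1785 peaks of the 15109 in the list, or 11.9% of the 14974 autosomal peaks (exact binomial 95% interval 11.4% to 12.5%). All 1785 are described, and none was removed by a filter.

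CTCF recognises a long, conserved DNA motif through its zinc fingers. Bound CTCF can halt the extrusion of chromatin loops by the cohesin complex, so that its sites often mark the anchors of loops and the borders of chromatin domains. In neurons, CTCF is known for its part in choosing clustered protocadherin promoters and in the expression of genes needed for learning and memory. Some CTCF sites lie at promoters in gene-rich DNA and others far from any gene.

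The study measured CTCF by chromatin immunoprecipitation and sequencing (ChIP-seq) in hippocampus, a brain region needed for forming new memories, of C57/Bl mice. The labels name 2 libraries made with an antibody to CTCF and 2 input libraries, which are chromatin without immunoprecipitation, and no treatment or genotype separates the mice. The labels state neither age nor sex nor whether animals were pooled. By the header of the list, all 4 libraries went into it, although the design text of the series counts fewer input libraries than the labels. Replicate error is therefore unknown throughout, and no difference between mice could be measured. Hippocampus is a mixture of neurons and glia, in which a site bound in a few cells and one bound weakly in many cannot be told apart.

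Because score and spacing chose these peaks, both are given as descriptions without a test. Width and position come from the same peak calls and were treated in the same way. The 95% intervals are exact binomial for shares, from order statistics for medians and exact Poisson for densities. They cover counting error only and treat peaks as independent. The comparison group, called the other peaks, is the 12441 autosomal peaks that scored under the limit and had a neighbour within 100 kb, unless another group is named. The score is the authors' own whole number per peak, and strong and weak refer to it alone. Peaks are given by position (mm9, counted from 1) without gene names or sequence, as neither the genome nor the genes of that build were used here.

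Isolated peaks had scores close to those of the other peaks. The median score was 90 for the isolated peaks (interval 85 to 90) and 90 for the other peaks (interval 90 to 90). Scores repeat often, with 322 distinct values among the isolated peaks and 91 of them at exactly 90, so equal medians are a coarse statement. The whole distributions were also close. The middle 50% of isolated peaks scored 62 to 140, against 62 to 148 for the others, and the means were 122 ± 97.3 and 124 ± 97.2 (SD over 1785 and 12441 peaks).

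The shares in score classes showed the same closeness. Strong scores, meaning at or above the 75th percentile of the whole list, were held by 362 isolated peaks, or 20.3% (18.4% to 22.2%), against 21.4% (20.6% to 22.1%) of the others. Scores under 62 were held by 22.0% and 22.4%. The class from 62 to 92 held 32.9% of the isolated peaks (30.7% to 35.1%) and 29.8% of the others (29.0% to 30.6%), the one class of the 5 in which the intervals did not overlap. From 300 to 568 the shares were 7.34% and 6.90%. Read the other way, isolated peaks made up 11.4% to 13.7% of every score class below the limit. Among the 748 autosomal peaks at or over the limit, which the rule leaves out, 80 also stood alone, or 10.7% (8.57% to 13.1%).

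Isolated peaks were narrower than the others. Their median width was 445 bp (440 to 453), against 467 bp (464 to 470), and the middle 50% spanned 384 to 540 bp against 397 to 585 bp. The upper tail differed most. Only 29 isolated peaks were wider than 1 kb, or 1.62% (1.09% to 2.32%), against 518 of the others, or 4.16% (3.82% to 4.53%). At the other end, the smallest width in the list, 344 bp, was held by 4.87% of isolated and 3.83% of other peaks.

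**Figure D1:**
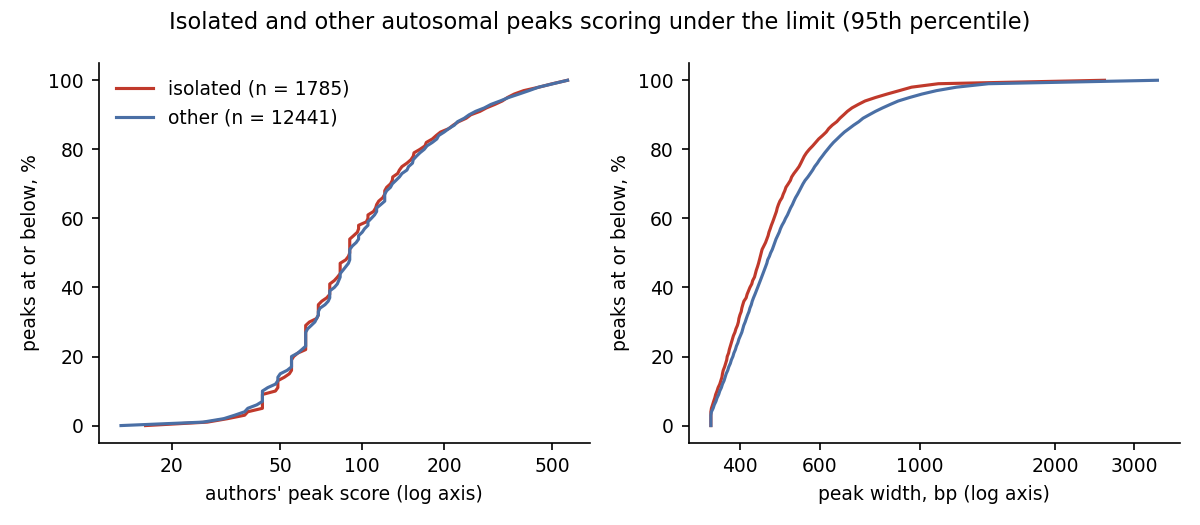
Cumulative share of peaks (vertical axis, %) by the authors' score (left, log axis) and by width in bp (right, log axis), for 1785 isolated peaks (red) and 12441 other autosomal peaks under the score limit (blue). The score curves nearly coincide, with medians of 90, while the width curve of isolated peaks lies to the left, with medians of 445 and 467 bp.

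Strong peaks in this list are wider, so width was also compared among peaks of like score. Isolated peaks had a lower median than all other peaks together in each of the 5 score classes. The medians were 386 against 396 bp for scores under 62, and 408 against 429 bp for scores of 62 to 92. They were 481.5 against 492 bp for 93 up to the 75th percentile, 544 against 567.5 bp from there to 299, and 646 against 679 bp for 300 to 568. The intervals were apart for scores of 62 to 92 (402 to 420 bp against 426 to 433 bp) and overlapped in the other 4 classes. Against the 1424 other peaks with a neighbour at 50 to 100 kb the difference was small and not in 1 direction. In the same order of classes those peaks had medians of 385, 417, 483.5, 542 and 667 bp, so that isolated peaks were slightly wider in 2 classes and narrower in 3. Peaks wider than 1 kb were scarcer among isolated peaks at a like score, set against all other peaks. In the class ending at 299 they were 3.90% of isolated peaks (9 of 231) and 10.17% of other peaks. In the class from 300 to 568 they were 7.63% (10 of 131) and 17.5%. Among the peaks with a neighbour at 50 to 100 kb they were 5.39% (11 of 204) and 10% (11 of 110) in these classes. The isolated shares and those at 50 to 100 kb thus rest on few wide peaks. Score and width rose together inside the isolated set (Spearman's rho = 0.57 across 1785 peaks of 1 list), as among the others (rho = 0.53 across 12441).

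The narrower width did not set in at 100 kb alone. Median width was lower past 10 kb and again past 100 kb, and the intervals of the classes on either side of 100 kb overlapped. Among autosomal peaks under the score limit, the median width was 475 bp (471 to 480) with a neighbour within 10 kb, 461 bp at 10 to 50 kb and 458 bp (450 to 464) at 50 to 100 kb. Past the limit it was 446 bp (435 to 457) at 100 to 200 kb, 445 bp at 200 to 500 kb and 444.5 bp (435 to 460) beyond 500 kb. The share wider than 1 kb went from 5.29% in the nearest class through 3.24% and 2.46% to 1.59%, 1.68% and 1.61%. The 3 classes of isolated peaks thus had almost the same widths, however far the next peak was. Median scores stayed between 89 and 92 in all 6 classes. With peaks under 1 kb apart joined into single regions, the median was 447 bp for isolated and 474 bp for other regions.

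**Figure D2:**
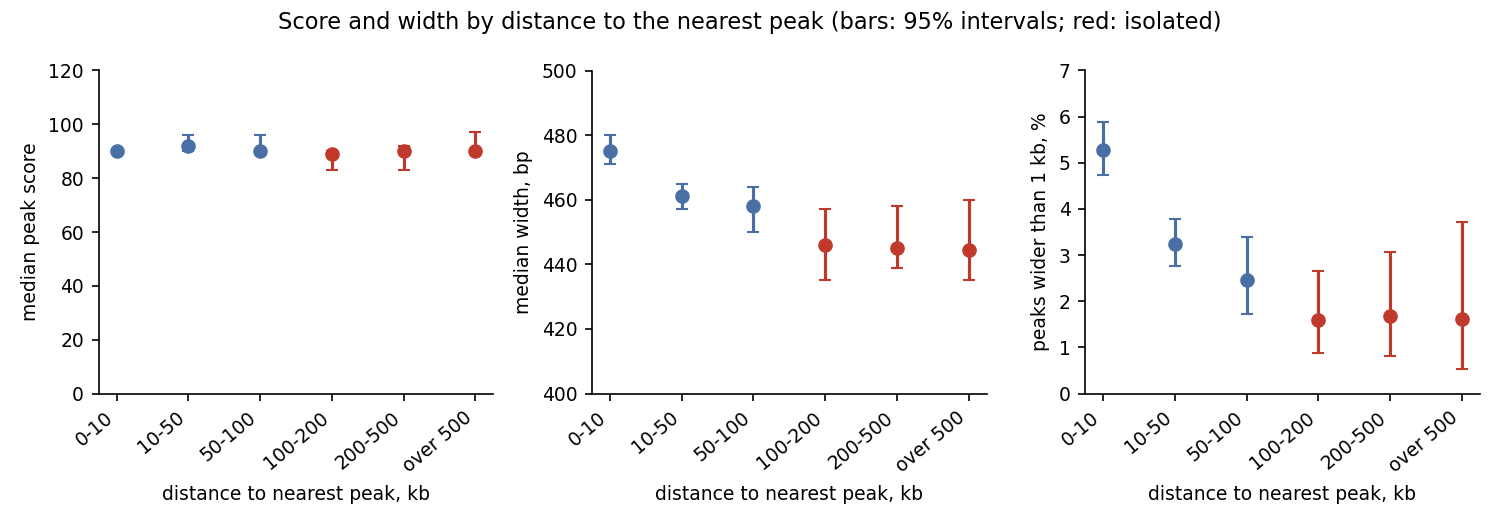
Median score, median width in bp (axis from 400 bp) and share of peaks wider than 1 kb, by distance to the nearest peak in kb, for autosomal peaks under the score limit; bars are 95% intervals and red marks the isolated classes. Median scores stay between 89 and 92, while median width goes from 475 to 444.5 bp and the share wider than 1 kb from 5.29% to 1.61%.

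The strongest isolated peaks lay at the score limit. A peak on chromosome 4 at 132312606 to 132313249 scored 568 and was 644 bp wide, with 177 kb free of peaks on its low-coordinate side and 188 kb on the other. A peak on chromosome 6 at 47600717 to 47601521 also scored 568, with a width of 805 bp. On chromosome 1 the peak at 88566073 to 88566643 scored 564, and its nearest neighbour was 141 kb away. These 3 were alone only at short range, since 47, 16 and 23 other peaks lay within 1 Mb on either side.

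The next by score was on chromosome 7 at 98410500 to 98411640. It scored 560, was 1141 bp wide, and had 804 kb and 409 kb of empty sequence beside it and 5 peaks within 1 Mb. The fifth, on chromosome 12 at 101202572 to 101203480, scored 552 with 24 peaks within 1 Mb. The peaks left out most narrowly by the score limit were at 107790846 to 107791403 on chromosome 4, just above it, and at 112207653 to 112208411 on chromosome 2, which scored 573. They resembled those inside the limit, with widths of 558 and 759 bp. At the weak end, the lowest score was 16, for a 344 bp peak on chromosome 14 at 12986327 to 12986670.

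The widest isolated peak stood apart from the rest. It lay on chromosome 16 at 8883872 to 8886446, measured 2575 bp and scored 143, with 196 kb and 263 kb empty beside it. The next widest measured 1400 bp on chromosome 3 at 38785930 to 38787329, scoring 283, and 1385 bp on chromosome 2 at 146784347 to 146785731, scoring 462. The 29 isolated peaks wider than 1 kb lay on 15 chromosomes and scored from 49 to 560, with a median of 237.

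The distance from an isolated peak to its nearest neighbour varied widely. The median distance to the nearest peak was 204 kb (192 to 213), and the middle 50% lay at 137 to 381 kb. The next peak was more than 200 kb away for 907 (50.8%), more than 500 kb away for 310 (17.4%), more than 1 Mb away for 112 (6.27%) and more than 2 Mb away for 33 (1.85%). The values at the limit itself show that it cuts through a continuous range. Just inside were a peak on chromosome 17 at 34950495 to 34951254, scoring 278 at 100.2 kb, and one on chromosome 3 at 69065628 to 69066080, scoring 121 at 100.2 kb. Just outside were a peak on chromosome 4 at 127775302 to 127775663, scoring 49 at 99.9 kb, and one on chromosome 2 at 73201958 to 73202465, scoring 90 at 99.7 kb.

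The empty stretches beside isolated peaks were long and often of unequal length. Both stretches could be measured, from edge to edge, for 1763 peaks, and the other 22 were first or last on their chromosome. The 2 stretches together had a median of 0.829 Mb (0.775 to 0.874), with a middle 50% of 0.451 to 1.60 Mb and a range of 0.205 to 16.2 Mb. For the other peaks the median was 67.6 kb and the middle 50% was 26.9 to 155 kb, which follows in large part from the rule. The longer side of an isolated peak was typically 2.11 times the shorter (2.04 to 2.20), with medians of 0.564 and 0.201 Mb. It was at least 5 times the shorter for 316 peaks (17.9%). The ratio of the sides was not computed for the other peaks, so their inequality is not shown to be particular to isolated peaks. Direction along the chromosome made little difference, with medians of 0.321 Mb on the low-coordinate and 0.322 Mb on the high-coordinate side.

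Peaks with long empty stretches on both sides were uncommon. A stretch above 1 Mb lay on both sides of 102 isolated peaks (5.79%), on 1 side of 440 (24.96%) and on neither side of 1221 (69.3%). Only 30 had more than 2 Mb on both sides. The most solitary, on chromosome 4 at 70499396 to 70499793, had 6.79 Mb below it and 9.44 Mb above it. It scored 62 and was 398 bp wide. A peak on chromosome 1 at 108609055 to 108609404 came next by total length, with 0.301 Mb on one side and 11.6 Mb on the other. It scored 140 and was 350 bp wide.

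The third was on chromosome 14 at 96917273 to 96917680, with 9.36 and 2.54 Mb beside it and a score of 55. A peak on chromosome 15 at 18565223 to 18565597 had 5.71 and 6.01 Mb beside it, scored 48 and was 375 bp wide. On chromosome 1 the peak at 141276023 to 141276380 had 2.06 and 9.19 Mb beside it and scored 62. These 5 were all narrower than the isolated median, and 4 of the 5 scored below it. Not every remote peak was weak, however. A peak on chromosome 6 at 17256041 to 17256503 had 4.75 and 5.24 Mb beside it and scored 170.

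**Figure D3:**
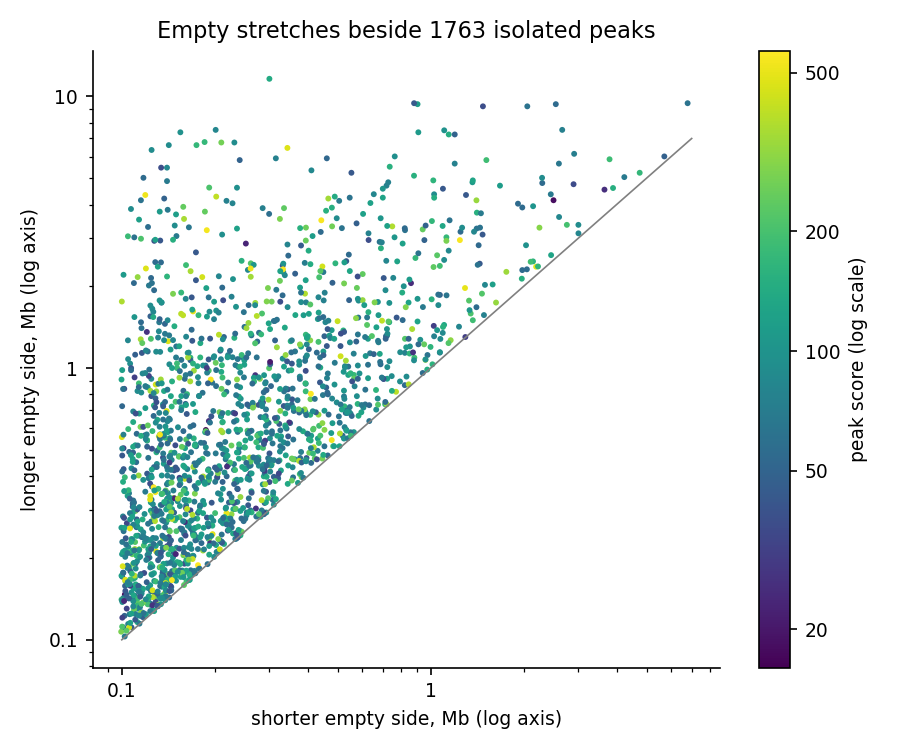
Shorter against longer empty stretch beside each of 1763 isolated peaks, in Mb on log axes, coloured by score; the grey line marks equal lengths. Most peaks sit near the left edge, with a median shorter side of 0.201 Mb and a median longer side of 0.564 Mb, and scores are mixed over the whole plot.

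Across all isolated peaks, score was nearly unrelated to the empty length around them (Spearman's rho = 0.05 over 1763 peaks of 1 list), and so was width (rho = -0.01). The median score was 90 with up to 0.5 Mb of empty sequence in all, 83 with 0.5 to 1 Mb and 89 with 1 to 2 Mb. It was higher, 105 (90 to 118), for the 259 peaks with 2 to 5 Mb, of which 29.0% were strong (23.5% to 34.9%), against 17.5% to 19.1% in the 3 classes with less. The 72 peaks with more than 5 Mb went back to a median of 85 (76 to 96), and 15.3% of them were strong (7.88% to 25.7%). The class from 2 to 5 Mb was singled out after its values had been seen, and its difference was not tested. Median widths stayed between 438.5 and 452 bp in all 5 classes.

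Isolated peaks lay at the ends of many empty stretches of the autosomes, which the rule itself largely fixes: a peak beside a long stretch needs only its other side to be empty over 100 kb. At least 1 end was an isolated peak in 17.2% of all stretches and in 67.3% of those above 0.1 Mb. Of 493 stretches above 1 Mb, 222 had an isolated peak at both ends, 210 at 1 end and 61 at neither, so that 87.6% had at least 1. Of the 31 stretches above 5 Mb, 27 had at least 1. All 2571 stretches with an isolated peak at an end added up to 1676 Mb, or 70.5% of the 2377 Mb between adjacent autosomal peaks. The longest autosomal stretch, on chromosome 1 from 108609405 to 120218195 (11.6 Mb), ran from an isolated peak scoring 140 to a strong one scoring 1051. The second, on chromosome 7 from 38986954 to 48854564 (9.87 Mb), had no isolated peak at either end, and its border peaks scored 2086 and 205. The lengths include any assembly gap, and read coverage inside them is unknown, so an empty stretch is not evidence that CTCF did not bind there.

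Being alone within 100 kb did not always mean a region poor in peaks. Within 1 Mb on either side, an isolated peak had a median of 7 other peaks (6 to 7), with a middle 50% of 3 to 13, against 35 (35 to 36) for the other peaks. The rule favours this direction. It leaves no peak within 100 kb of an isolated peak, whereas each of the other peaks has a neighbour there. None was found around 112 isolated peaks (6.27%), and 5 or fewer around 774 (43.4%), against 0% and 3.58% of the other peaks. At the same time, 263 (14.7%) had 20 or more, against 75.2% of the other peaks, and the most crowded had 74. Peak-poor thus describes most of these peaks. The 14.7% with 20 or more had counts that were common among the other peaks, whose lower quartile was 20. Windows at chromosome ends are cut short. Scores differed little between these settings, with medians of 90 for 2 or fewer peaks within 1 Mb, 85 for 3 to 5, 88.5 for 6 to 10 and 90 for 11 or more, and median widths of 442.5 to 452 bp.

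Isolated peaks often followed one another, which the rule favours. The nearest neighbour of an isolated peak already has more than 100 kb free on the shared side, so the 11.9% of all autosomal peaks that were isolated is no like-for-like background. Among the 1763 with a neighbour on each side, 572 (32.4%) had isolated peaks on both, 792 (44.9%) on 1 and 399 (22.6%) on neither. The nearest neighbour was itself isolated for 958 of 1785 (53.7%), and for 180 (10.1%) it was a peak with a further peak within 10 kb. The scores of nearest neighbours were ordinary, with a median of 92 (90 to 97), and 94 of them (5.27%) scored over the limit, against 4.995% of all autosomal peaks. An isolated peak scored above its nearest neighbour in 828 cases, below it in 910 and the same in 47. The rule caps the scores of isolated peaks but not of their neighbours, so the 94 neighbours over the limit always scored higher. Isolated peaks that were nearest to each other were counted once in each direction. The split is therefore no evidence that isolated peaks were weaker than their neighbours.

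Successive isolated peaks formed 808 runs, in which no other peak came between. Of these, 403 were single peaks, 182 were pairs, 135 held 3 or 4, and 88 held 5 or more, the last with 570 peaks in all. The longest run lay on chromosome 5 from 3844883 to 20949625, near the low-coordinate end, with 15 peaks over 17.1 Mb. Scores within it lay between 43 and 155, with a median of 82, so none was strong. A run on chromosome 15 from 44465850 to 57537784 held 14 peaks over 13.1 Mb, scoring 21 to 276, and one on chromosome 3 from 55346547 to 67411962 held 14 over 12.1 Mb, scoring 69 to 382.

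Isolated peaks were spread more evenly over the autosomes than peaks as a whole, which the rule itself favours. The number per Mb of span, from first to last peak, was 0.748 over all autosomes and ran from 0.607 on chromosome 8 (0.479 to 0.759) to 0.900 on chromosome 16 (0.719 to 1.11), a ratio of 1.48. All peaks together ran from 3.30 per Mb on chromosome 3 to 11.9 on chromosome 11, a 3.601-fold range. A crowded chromosome has more peaks but leaves a smaller share of them alone, which narrows the range for isolated peaks in advance. How much of the contrast goes beyond this was not tested. Chromosome 1 held the most isolated peaks, 158 or 8.85% of them, with 5.08% of autosomal peaks. Chromosome 11 held 9.39% of autosomal peaks and 79 isolated ones, or 4.43%.

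The share of a chromosome's peaks that stood alone therefore ran opposite to its density. It was 21.4% on chromosome 3 (17.9% to 25.3%), 21.2% on chromosome 13, 20.8% on chromosome 1 and 20.2% on chromosome 16. It was 5.62% on chromosome 11 (4.47% to 6.95%), 8.03% on chromosome 4, 8.53% on chromosome 7 and 8.60% on chromosome 8. Across the 19 autosomes, the share went with peak density at Pearson's r = -0.94 and Spearman's rho = -0.94, and at r = -0.96 without chromosomes 11 and 3. A crowded chromosome leaves fewer peaks alone by the rule itself, and the density is the denominator of the share, so this relation is a description. The number of isolated peaks per Mb had a looser relation to density, with r = -0.48 and rho = -0.44.

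**Figure D4:**
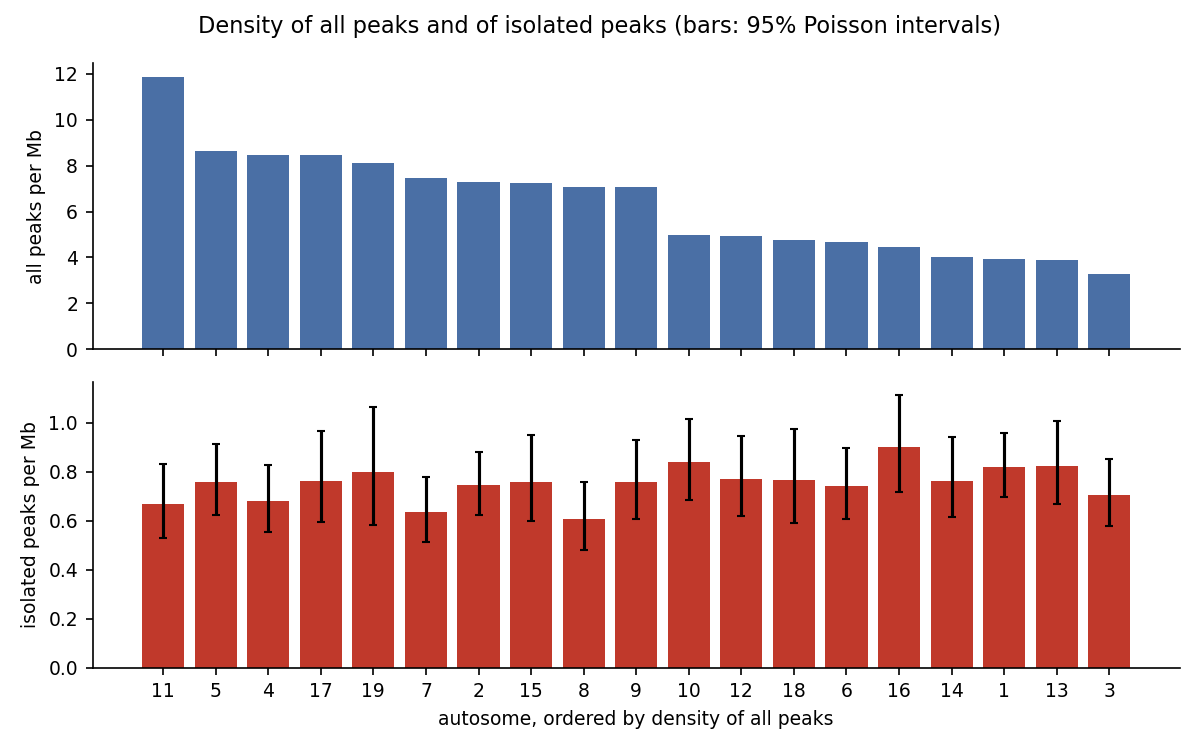
All peaks per Mb (top) and isolated peaks per Mb with 95% Poisson intervals (bottom) for the 19 autosomes, ordered by density of all peaks. The top bars range 3.601-fold, from 11.9 on chromosome 11 to 3.30 on chromosome 3, and the bottom bars 1.48-fold, from 0.607 to 0.900. The spacing rule itself narrows the range of the bottom bars.

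Score and width of isolated peaks varied modestly between chromosomes. Median scores were lowest on chromosomes 4 (76, interval 69 to 90) and 11 (77, interval 63 to 96), the latter being the chromosome densest in peaks. They were highest on chromosomes 16 (105, interval 87 to 124) and 8 (103, interval 83 to 121). On chromosome 16 the other peaks had a median of 90, and on chromosome 11 they had 92. The isolated median was below that of the other peaks on 13 chromosomes, equal on 3 and above on 3. The share of strong peaks ran from 12.4% on chromosome 5 (6.94% to 19.9%) to 26.4% on chromosome 10 (18.3% to 35.9%), with wide intervals from 46 to 158 peaks each. Isolated peaks had the lower median width on 15 of 19 autosomes, with the isolated medians between 421 bp on chromosome 11 and 475 bp on chromosome 2. The median empty length on both sides ran from 0.575 Mb on chromosome 7 to 0.967 Mb on chromosome 3.

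Along the chromosomes, isolated peaks were close to evenly placed, whereas the remaining autosomal peaks, those over the score limit included, were less even and, pooled over chromosomes, most frequent towards the high-coordinate end. Mouse autosomes have their centromere at the low-coordinate end. With each span cut into 10 equal parts, every part held between 8.57% and 10.98% of the isolated peaks. For the 13189 remaining peaks the share was 5.96% in the first part, 15.6% in the ninth and 20.8% in the last. The distal 50% of the span held 51.1% ± 7.89 of a chromosome's isolated peaks (SD over 19 autosomes), against 60.4% ± 20.8 of its remaining peaks.

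The remaining peaks did not lean the same way everywhere, with under 50% in the distal part on 6 autosomes and over 50% on 13. Isolated peaks were less distal than the remaining ones on 12 of 19 autosomes and nearer to an even split on 16. On chromosome 4 the distal 50% held 48.0% of the isolated and 86.4% of the remaining peaks, and on chromosome 15 it held 52.6% and 88.3%. On chromosome 17 the remaining peaks leaned the other way, with 26.3% in the distal 50%, and the isolated ones were again near even at 49.3%. Chromosome 7, with 72.6% of the isolated and 51.3% of the remaining peaks, and chromosome 16, with 34.1% and 28.4%, were the autosomes where isolated peaks were least evenly split. Because a crowded region leaves few peaks alone, part of this evenness follows from the rule.

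**Figure D5:**
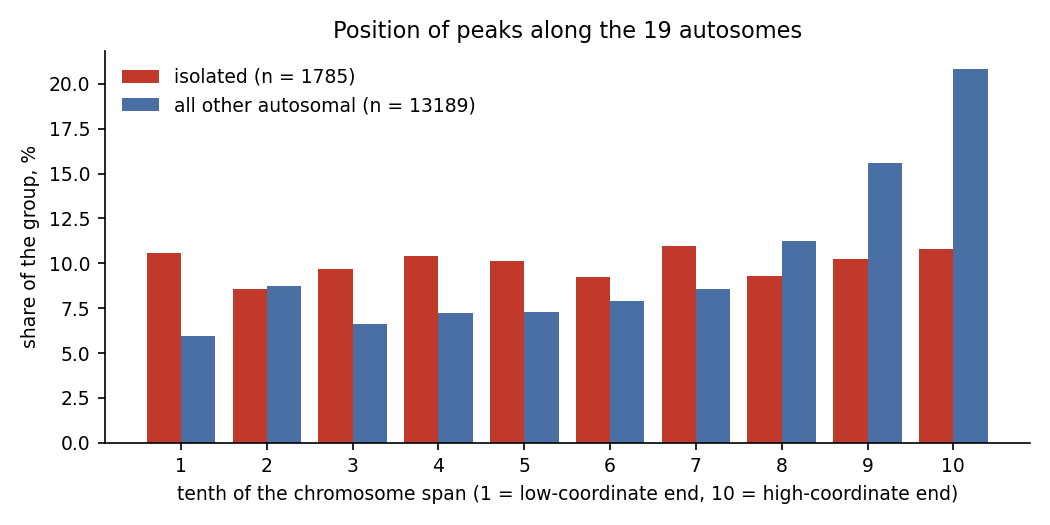
Share of 1785 isolated peaks (red) and of 13189 remaining autosomal peaks (blue) in each of 10 equal parts of the chromosome span, part 1 being the low-coordinate end. Isolated peaks hold 8.57% to 10.98% in every part, while the remaining peaks reach 20.8% in part 10.

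Peaks that stood alone but fell outside the rule give a frame for these values. The 80 autosomal peaks with scores over the limit and no neighbour within 100 kb had a median width of 949.5 bp (862 to 1092), against 935 bp (909 to 962) for all 748 peaks at such scores. At these scores the lone peaks were thus not narrower by their median. On chromosome X, 56 of 135 peaks stood alone, or 41.5% (33.1% to 50.3%). The 54 of them that scored under the limit had a median score of 150.5 (121 to 190), above the 90 of the autosomal isolated peaks, and 40.7% of them were strong (27.6% to 55.0%). Their median width was 508.5 bp (444 to 561). The remaining X peaks were not summarised, so whether the higher scores are particular to lone X peaks was not examined. Peak density was not computed for X either. On the autosomes the share of peaks standing alone ran opposite to density by the rule itself. Whether the 41.5% goes beyond this was not tested.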

How the data were processed

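CTCF ChIP-seq of hippocampus of C57/Bl mice gave 1 deposited peak list, which combines 2 ChIP and 2 input libraries, per the file header. The submitters' processing notes name MACS2 (version 2.0.10.20131216) for the build mm9, and cutadapt. Aligner, duplicate handling and calling threshold: not given in the sources used here. The authors' deposited score is 1 whole number per peak, of unstated scaling, and was used only inside this list. The peak names are numbered to 15109 without a missing number. Read depth is unknown.

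Starts were counted from 1, and widths, midpoint distances, empty lengths and counts within 1 Mb were computed with Python 3.11.15, pandas 2.3.3, numpy 2.4.6 and scipy 1.17.1. The search for isolated peaks was tested on simulated lists. Peaks were named by rule: the 5 highest-scoring, the 5 with the longest empty length, the 3 widest, the longest run and those next to each limit. The lowest-scoring peak, a remote peak on chromosome 6 and 2 further runs were added after their values were seen. Chromosome 18 was counted but its peaks were not named. Members, classes and comparisons were chosen with earlier results of these data known. No test was run. No sequence is printed, since no mm9 genome was used here.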

Additional observations from a re-analysis of the deposited data

How the results depend on the processing

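Each of 10 values was recomputed under 9 alternatives, and 56 of the 90 recomputed values stayed inside the interval of the reported value, or within 1.5 times it for the count of isolated peaks. The distance limit changed the set most: more than 50 kb gave 3209 isolated peaks (21.4% of autosomal peaks, 0.455 Mb empty on both sides, 10 peaks within 1 Mb), and more than 200 kb gave 907 (6.06%, 1.32 Mb, 4 peaks). Keeping only scores of 62 or more gave a share of 14.4%, median scores of 105 for isolated and 111 for other peaks, median widths of 468 and 491 bp, and 2.53% and 5.19% wider than 1 kb. Keeping only scores of 93 or more gave 20.4%, scores of 153 and 154, widths of 523 and 536 bp, 4.50% and 7.83% wider than 1 kb, 1.02 Mb empty and 5 peaks within 1 Mb. Joining peaks under 1 kb apart gave a share of 13.0%, a median score of 92 and width of 474 bp for other regions, and 3.40% and 9.43% wider than 1 kb. With no upper limit on the score the share was 12.5%, the other peaks had a median score of 94 and width of 476 bp, and 3.43% and 6.11% were wider than 1 kb. Measuring from edge to edge, leaving out first and last peaks, and including X moved none of the 10 values past its interval. The lower median width and the smaller share wider than 1 kb in isolated peaks held under all 9 alternatives. Within score classes the lower width, against all other peaks, held in every class, except that with scores of 93 or more it held in 2 of 3. The classes end at the score limit, so the alternative with no upper limit repeats the reported comparison there and adds nothing to it. The alternatives for the shares wider than 1 kb were chosen after seeing the data, as an addition. No paired analysis was possible because peaks were called on all libraries together, and for the same reason no replicate could be left out. Sequence was not analysed here.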
